A study of Mus musculus with 4 samples.

Results

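The genes described here were bright in both reference cell types and dim in both induced ones. On each of the induced neural stem cell arrays their signal lay at least 4-fold below fibroblasts and at least 4-fold below primary neural stem cells. They were chosen by these same signals. Signals below a floor of 104 were set to it, log2 was taken, and each gene was represented by its probe set with the highest mean. A gene belonged to the set when iNSC_13F and iNSC_14F each lay at least 2 log2 units under both MEF and NSC. Of 18193 genes with a probe set of their own, 248 met this, which is 1.36% of all genes. Genes that the rule leaves out by name (Grb10, the Mbnl genes, the numbered Smc genes and Ccng1) removed 8 of these and left 240 members. Smchd1, which carries no Smc number, was kept. An established symbol was available for 237 members, and the other 3 are counted but not named.

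Total RNA of 4 mouse cell populations was hybridised to 1 Affymetrix array each. MEF are mouse embryonic fibroblasts, NSC are primary-derived neural stem cells, and iNSC_13F and iNSC_14F are neural stem cells induced with 13 or 14 factors. The culture medium of NSC and of both induced populations was N2 with 20 ng/ml EGF, 20 ng/ml bFGF and laminin, while the labels do not state the fibroblast medium, mouse strain, factor identities, starting cell and number of induced clones. With 1 array per population no test was possible, so every value below describes these 4 arrays and has no replicate error.

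The arrays carried the markers of their labels. All 8 neural stem cell markers were above the floor in NSC, iNSC_13F and iNSC_14F, with summed signals of 89634, 107797 and 112880.0, against 2 of 8 and a sum of 1420 in MEF. Fibroblast markers were above the floor for 8 of 9 genes in MEF and 2 in NSC, and for 5 in iNSC_13F and 4 in iNSC_14F, with sums of 234570.0, 1096, 3103 and 4427. No hepatocyte marker was above the floor on any array, nor was any of the 4 embryonic stem cell markers, although every sample carries embryonic stem cells as its source. Genes above the floor numbered 9852 to 10557 per array. The hybridisation controls, RNAs added in equal amount, were dimmer on the NSC array than on MEF by 1.83-fold, on iNSC_13F by 2.11-fold and on iNSC_14F by 1.82-fold. The ratio of 3′ to 5′ signal, which tracks RNA integrity, was 1.42 and 1.35 for actin in MEF and NSC and 1.53 and 1.65 in iNSC_13F and iNSC_14F. It was 0.775 and 0.723 for Gapdh in MEF and NSC and 0.806 and 0.779 in the induced populations. For the transferrin receptor it was 2.27 and 0.580 in MEF and NSC and 2.08 and 1.66 in the induced populations, so these lay between the references. The part of these differences in the low signals of the members was not tested.

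Reprogramming converts a differentiated cell to another identity by forcing expression of transcription factors. Comparisons of induced with native cells usually ask which genes of the new identity are gained and which of the old are kept. If MEF stand for the old identity and NSC for the new, the members are in neither class, since both references expressed them. The labels do not state the starting cell of the induced populations. Of the 240 members, 64 were on at least 1 of the 49 gene lists used here, and the rest were on none of these. Coat proteins, tethers and sorting nexins move cargo between endoplasmic reticulum, Golgi and endosomes. Ubiquitin ligases mark proteins for the proteasome and deubiquitinases remove the mark. Chaperones of the heat shock family fold client proteins, and importins carry cargo through nuclear pores.

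Member signals ran from 418 to 16860.2 in MEF, with a median of 1089, and from 419 to 19960.2 in NSC, with a median of 1849. In iNSC_13F they ran from 2.11 to 1315 with a median of 132, and in iNSC_14F from 2.49 to 1784 with a median of 163. A member's margin is the lower of its MEF and NSC values minus the higher of its induced values, in log2 units. Margins ran from 2.01 to 4.26 with a median of 2.38, which is 5.20-fold. Margins of 3 or more were found for 20 members, margins of 2.5 to 3 for 64 and smaller ones for 156. On both induced arrays 60 members were below the floor, so their margins are lower bounds, while 49 were below it on 1 induced array and 131 on neither. With a floor of 200 there were 150 members, and with the median over a gene's probe sets in place of the brightest there were 95. In cell populations, fewer cells expressing a gene and less RNA of it per cell cannot be told apart.

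**Figure D1:**
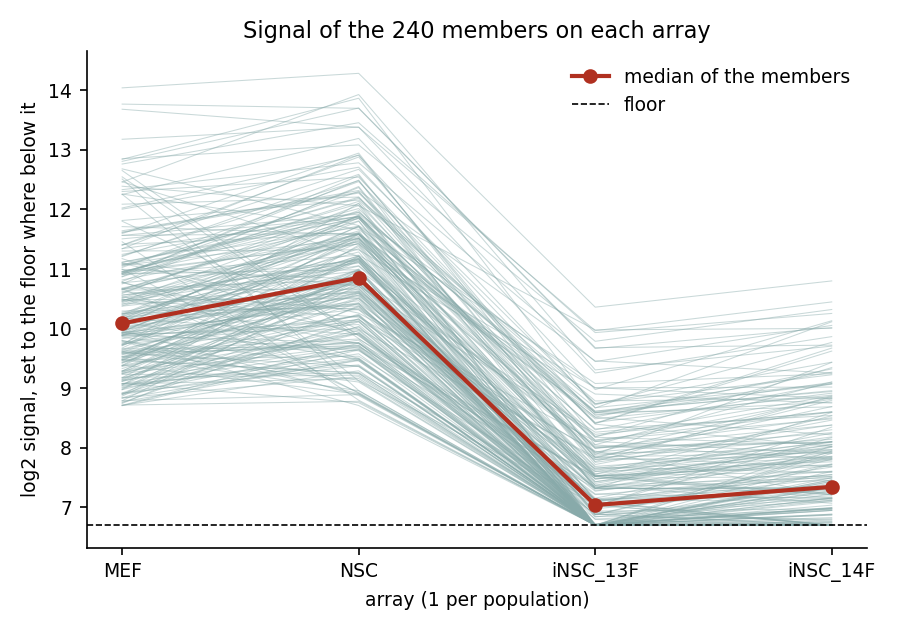
Each thin line is 1 of the 240 members across the 4 arrays, with log2 signal on the vertical axis and values below the floor drawn at the floor (dashed). The thick line joins the medians of the members, at signals of 1089 and 1849 in MEF and NSC and of 132 and 163 in iNSC_13F and iNSC_14F.

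Only a gene of at least 416, 4 times the floor, in both MEF and NSC could meet the rule, and 5591 genes did so. These are called bright genes below. The rule was met by 4.44% of them, and the 240 members made up 4.29%. The median margin over all bright genes was -0.73, so for a typical bright gene the brighter induced array exceeded the dimmer reference. At a 2-fold gap 861 genes (4.73%) were lower on both induced arrays and 238 (1.31%) were higher. Among bright genes these were 661 (11.8%) and 65 (1.16%). Bright genes exclude any gene dim in MEF or NSC, however high on the induced arrays, so their split depends in part on this filter. At the 4-fold gap the opposite pattern, higher on both induced arrays than in both references, was found for 13 of all genes (0.0715%). Taken alone, iNSC_13F was at least 4-fold below MEF for 1091 genes (6%) and below NSC for 1258 (6.91%), and iNSC_14F for 929 (5.11%) and 1016 (5.58%).

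**Figure D2:**
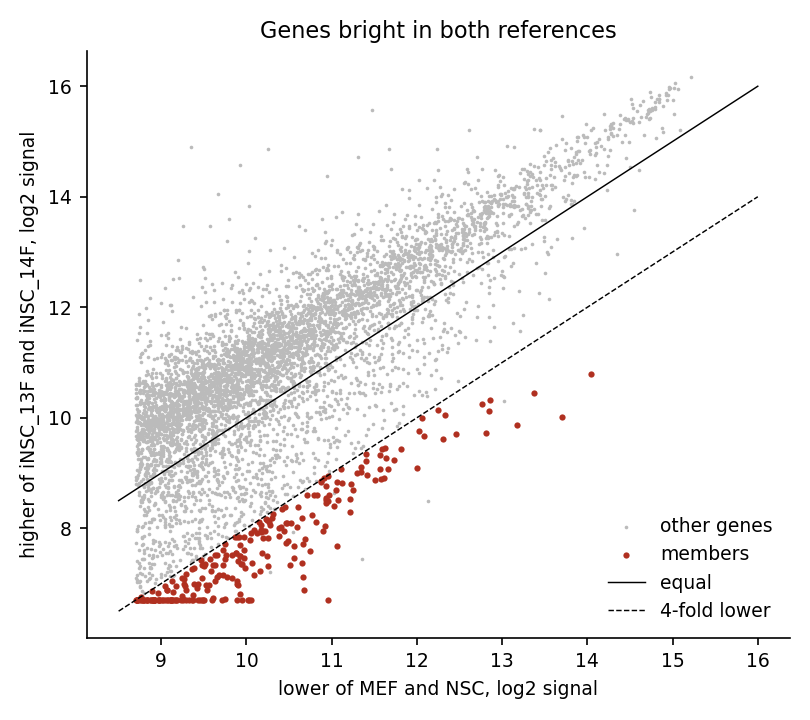
Each point is 1 of the 5591 bright genes, with the lower of its MEF and NSC log2 signals on the horizontal axis and the higher of its iNSC_13F and iNSC_14F log2 signals on the vertical axis. Members (red) lie below the dashed line, which marks the 4-fold gap, and grey points below that line are the 8 genes left out of the set.

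Promoter sequence was available from RefSeq (build GRCm38.p6) for 198 of the 240 members, 4426 other bright genes and 14368 genes of the array. For each gene the 250 bases before its first listed start were searched on both strands for 10 motifs, chosen with the members known. They were 6 short elements and the 4 palindromes of 10 bases that use all 4 bases, equal their own reverse complement and occur in at least 100 windows of the table. Of these 10, the motif with the largest ratio of its share in members to that in other bright genes, singled out after the shares were seen, was the palindrome TCTCGCGAGA. It stood in 12 member promoters (6.06%), in 1.08% of the promoters of other bright genes, in 0.675% of those of all array genes and in 0.390% of all 32851 windows of the table. Its 12 holders are shown because they are the members this count rests on. Each line gives 30 bases on the gene's strand, written 5′ to 3′, with the palindrome in capitals.
Tasor2 (chr13:3611263-3611292, minus strand): gccgcctacaTCTCGCGAGAagccaaggaa
Taok1 (chr11:77607898-77607927, minus strand): aggcaagaacTCTCGCGAGAtctgaggctg
Cip2a (chr16:48993950-48993979, plus strand): cacgagctcgTCTCGCGAGAttcccgcgtg
Usp47 (chr7:112023414-112023443, plus strand): tgcgttgaatTCTCGCGAGAgcggcggccg
Ireb2 (chr9:54863670-54863699, plus strand): ggtccgaggaTCTCGCGAGAgttagccggc
Marchf7 (chr2:60209841-60209870, plus strand): ccgccgcggcTCTCGCGAGAagcgggcgag
Akap11 (chr14:78536874-78536903, minus strand): acggggtcgtTCTCGCGAGAggtgcgacgg
Mob1b (chr5:88720826-88720855, plus strand): cagagctcgcTCTCGCGAGActtcggcgcg
Rc3h2 (chr2:37423024-37423053, minus strand): aacagtatctTCTCGCGAGAgctaaatcgg
Ift74 (chr4:94614386-94614415, plus strand): tgttctcaaaTCTCGCGAGActtccccacc
Ggnbp2 (chr11:84870857-84870886, minus strand): gcggccgcggTCTCGCGAGAagaggcaggc
Hells (chr19:38930899-38930928, plus strand): gagcccgaagTCTCGCGAGAccaccgggtt
The first match in the window began 228 bases before the start in Cip2a, the farthest, and 33 bases before it in Akap11, the nearest. Akap11 held 2 matches, the second of them nearer the start and not shown, and the other holders 1 each. Read the other way, 60 bright genes had the palindrome, of which 12 (20%) were members and 16 (26.7%) were at least 2-fold lower on both induced arrays, beside 4.29% and 11.8% of all bright genes. The median margin of these 60 genes was -0.14, against -0.73 over all bright genes. Most of the holders were thus not members. A match is a description of these letters, and no binding was measured.

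Of the other motifs, CACGTG (an E-box) stood in 15.7% of member promoters, 9.40% of other bright genes' and 7.57% of array genes'. Of the other palindromes, GCGCATGCGC stood in 2.53%, 2.01% and 1.25%, and GTGACGTCAC, which holds a cyclic AMP response element, in 1.52%, 0.994% and 0.592%. CATATATATG stood in no member promoter and in 1 of the 4426. GGGCGG (a GC box) was as common in members, at 64.6%, as in other bright genes, at 65.2%, with 49.97% for array genes. Members had lower shares than other bright genes for CCAAT (31.3% against 37.3%), for TATAAA, the TATA box (3.54% against 5.56%), and for CCGGAAG (11.6% against 17.8%), and array genes had 35.7%, 9.01% and 10.6%. AGAACC stood in 13.1%, 11.8% and 12.8%. Over all 32851 windows the shares were 6.02% for CACGTG, 32.7% for GGGCGG, 33.8% for CCAAT, 12.4% for TATAAA, 6.91% for CCGGAAG, 13.3% for AGAACC, 0.782% for GCGCATGCGC, 0.387% for GTGACGTCAC and 0.396% for CATATATATG. No motif is contained in another on either strand. Member promoters had a median of 21 CpG dinucleotides in 250 bases, against 18 for other bright genes and 13 for array genes, and a median GC content of 64%, 60.8% and 57.6%.

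A pair of whole promoters shows how far members differ in these letters. Tmed5 had the largest margin of the set, and its 250 bases held 33 CpG, 1 GC box and 1 CCAAT box. Sh3bgrl, an X-linked member that was also among the largest margins, had 7 CpG and 1 CCGGAAG. Capitals mark matches on either strand to the E-box, the GC box, the CCAAT box, the TATA box and the CCGGAAG element as spelled above.
Tmed5 (chr5:108132621-108132870, minus strand): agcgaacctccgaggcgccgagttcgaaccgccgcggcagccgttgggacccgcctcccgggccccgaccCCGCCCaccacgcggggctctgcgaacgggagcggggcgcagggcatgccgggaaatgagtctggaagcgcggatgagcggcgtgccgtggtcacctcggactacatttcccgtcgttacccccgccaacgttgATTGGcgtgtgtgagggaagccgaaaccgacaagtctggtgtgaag
Sh3bgrl (chrX:109095157-109095406, plus strand): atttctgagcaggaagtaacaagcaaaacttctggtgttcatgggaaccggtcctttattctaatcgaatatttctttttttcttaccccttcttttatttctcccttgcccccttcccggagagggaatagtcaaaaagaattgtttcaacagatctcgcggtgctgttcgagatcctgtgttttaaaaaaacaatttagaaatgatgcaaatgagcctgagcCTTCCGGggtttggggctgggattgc
The windows share no marked motif.

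Membrane traffic held 21 members, more than any other list counted here. This list of 205 genes was written after the values were seen, so its count is a description that supports nothing. Of its 128 bright genes 21 were members (16.4%), 31 were at least 2-fold lower on both induced arrays (24.2%) and 0 were higher. The shares over all bright genes were 4.29% members and 11.8% lower. Tmed5, a cargo receptor of the vesicles between endoplasmic reticulum and Golgi, had signals of 1991 in MEF and 3741 in NSC, against 89.5 in iNSC_13F and 88.3 in iNSC_14F. Both induced signals were below the floor, which puts the gap at 19.1-fold or more. Exoc5, a subunit of the exocyst that tethers vesicles to the plasma membrane, had 1618 in MEF and 3589 in NSC, against 138 in iNSC_13F and 139 in iNSC_14F. For Scfd1, which assists SNARE pairing between endoplasmic reticulum and Golgi, the signals were 1036 in MEF and 1485 in NSC, against 89.8 in iNSC_13F and 100.1 in iNSC_14F. Vamp7, a SNARE of late endosomes and lysosomes, measured 806 in MEF and 1631 in NSC, against 101 in iNSC_13F and 139 in iNSC_14F. The induced signals of Tmed5 and Scfd1 were under the floor, those of Exoc5 just over it and those of Vamp7 on either side of it. The other members of this group act along the whole route. They included the coat proteins Cltc and Copb1, the retromer subunit Vps35 and the sorting nexins Snx2, Snx13 and Snx16. The golgins and tethers were Golga4, Gcc2, Trip11, Uso1, Eea1, Trappc8 and Vps41. The translocon subunit Sec62, Golim4, Eps15 and Stxbp3 completed the group. Over the 21 members MEF ran from 536 to 7397, NSC from 478 to 8683, iNSC_13F from 52.1 to 884 and iNSC_14F from 39.8 to 1279. By the rule each gene's induced signals lay under both of its reference signals. Chm, an escort protein that presents Rab proteins for lipid attachment, read 579 in MEF and 2380.2 in NSC, against 72 in iNSC_13F and 77 in iNSC_14F. Lamp2, a glycoprotein of the lysosome membrane, read 5048 in MEF and 5966 in NSC, against 339 in iNSC_13F and 789 in iNSC_14F, and it was the 1 member among 30 bright lysosome genes. On this probe set iNSC_14F was more than 2-fold over iNSC_13F, and both were far under the references. Another probe set kept the gap, with a margin of 3.17. A further one read 1940 in MEF and 812 in NSC, against 559 in iNSC_13F and 429 in iNSC_14F. The last read 3284 in MEF and 1853 in NSC, against 928 in iNSC_13F and 893 in iNSC_14F. These latter probe sets fell short of a 2-fold gap, with iNSC_14F the lower.

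Motors and lipid enzymes stood beside this group. Kif5b, a kinesin heavy chain that carries cargo along microtubules, read 2368 in MEF and 6162 in NSC, against 216 in iNSC_13F and 316 in iNSC_14F. Dynlt3, a light chain of dynein, read 4355 in MEF and 4734 in NSC, against 341 in iNSC_13F and 817 in iNSC_14F. These were 2 of 29 bright genes for kinesins, dyneins and myosins (6.90%), close to the 4.29% of all bright genes. Far1 makes fatty alcohols for ether lipids, and its signals were 1629 in MEF and 1808 in NSC, against 38 in iNSC_13F and 117 in iNSC_14F. Cert1 carries ceramide from the endoplasmic reticulum to the Golgi, and read 1606 in MEF and 1621 in NSC, against 139.8 in iNSC_13F and 166 in iNSC_14F. Acsl4 activates arachidonic acid, and read 1143 in MEF and 1365 in NSC, against 88.5 in iNSC_13F and 149 in iNSC_14F. Far1 had the second largest margin of all members, 3.79, with an iNSC_13F signal below the floor and an iNSC_14F signal just above it. Pla2g4a, the cytosolic phospholipase that releases arachidonic acid, had 2312 in MEF and 949.8 in NSC, against 53.7 in iNSC_13F and 37.6 in iNSC_14F. Pik3c2a, a class II phosphoinositide kinase of endocytosis, had 1064 in MEF and 1655 in NSC, against 86.6 in iNSC_13F and 97.1 in iNSC_14F. Plcb4, a phospholipase downstream of G proteins, had 458 in MEF and 586 in NSC, against 50.1 in iNSC_13F and 49.9 in iNSC_14F. All 3 were under the floor on both induced arrays, and Plcb4 was the only member of 26 bright lipid and phosphoinositide enzymes.

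Chaperones and the proteasome included the brightest member on the MEF and NSC arrays, Hsp90aa1. Of 90 bright genes on this list 8 were members (8.89%) and 13 were at least 2-fold lower (14.4%), beside 4.29% and 11.8% of all bright genes. Hsp90aa1, the inducible cytosolic Hsp90, read 16860.2 in MEF and 19960.2 in NSC, against 1315 in iNSC_13F and 1784 in iNSC_14F. Hsp90b1, its counterpart in the endoplasmic reticulum, read 13146 in MEF and 10652 in NSC, against 1000.4 in iNSC_13F and 1397 in iNSC_14F. Their signals on the induced arrays were far over the floor, so the gaps are measured and not bounds. Hspa13, an Hsp70-like protein of microsomes, had 1361 in MEF and 2832 in NSC, against 178 in iNSC_13F and 259 in iNSC_14F. The J-domain partners of Hsp70 were Dnajc2, Dnajc13 and Dnajc21. Dnajc2, which sits on the ribosome, had 1067 in MEF and 3715 in NSC, against 230.1 in iNSC_13F and 241 in iNSC_14F, and its margin was -0.51 when _s_at and _x_at probe sets were left out. Dnajc13, which acts on endosomes, had 1364 in MEF and 1559 in NSC, against 129.5 in iNSC_13F and 326 in iNSC_14F. Dnajc21, which acts in ribosome assembly, had 622 in MEF and 895 in NSC, against 73.1 in iNSC_13F and 123 in iNSC_14F. Of these 3, Dnajc2 had the highest NSC signal relative to MEF. Psmc6, an ATPase subunit of the proteasome cap, read 4167 in MEF and 7693 in NSC, against 422 in iNSC_13F and 872 in iNSC_14F. Psme4, an alternative proteasome activator, read 2116 in MEF and 4723 in NSC, against 229.6 in iNSC_13F and 414 in iNSC_14F. None of the 90 was at least 2-fold higher on both induced arrays.

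Ubiquitin ligases and deubiquitinases had 11 members among 154 bright genes (7.14%), with 26 at least 2-fold lower (16.9%) and 1 higher. The shares over all bright genes were 4.29% and 11.8% lower. Among the ligases, Ube3a, imprinted in neurons and the enzyme lost in Angelman syndrome, had 1724 in MEF and 5351 in NSC, against 185 in iNSC_13F and 193 in iNSC_14F. Cul1, the scaffold of SCF ligases, had 1176 in MEF and 2927 in NSC, against 183 in iNSC_13F and 225 in iNSC_14F. Cul4b, an X-linked scaffold, had 972 in MEF and 1732 in NSC, against 132 in iNSC_13F and 179.8 in iNSC_14F. Ube3a had the largest gap of the group, and its NSC signal was the highest of these 3. Marchf7, a membrane-associated RING ligase, had 2391 in MEF and 5729 in NSC, against 227 in iNSC_13F and 445 in iNSC_14F. Ube2v2, a partner of the enzyme that builds Lys63-type chains, had 1556 in MEF and 4043 in NSC, against 224 in iNSC_13F and 334 in iNSC_14F. Rlim, an X-linked ligase known for its part in X inactivation, had 975 in MEF and 1363 in NSC, against 92.9 in iNSC_13F and 112 in iNSC_14F. One other probe set of Rlim also showed the gap, with a margin of 2.42. Another had 398 in MEF and 168 in NSC, against 311 in iNSC_13F and 179 in iNSC_14F, with no gap. Wwp1, a HECT ligase, had 601 in MEF and 608 in NSC, against 25.1 in iNSC_13F and 72.9 in iNSC_14F. For Wwp1 both induced signals were under the floor, for Rlim that of iNSC_13F alone, and for the other 2 neither was.

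The deubiquitinases among the members were Usp9x, Usp15, Usp16, Usp25, Usp33 and Usp47. Usp47 was the brightest and read 2429.9 in MEF and 3969 in NSC, against 386 in iNSC_13F and 412 in iNSC_14F. Usp33 read 873 in MEF and 1181 in NSC, against 117 in iNSC_13F and 138 in iNSC_14F. Usp16, which acts on histone H2A, read 742 in MEF and 868 in NSC, against 118 in iNSC_13F and 76.6 in iNSC_14F. Each of these had an iNSC_13F signal over the floor, and Usp16 was below it in iNSC_14F. Usp9x, X-linked and next to the member Ddx3x on the chromosome, read 762 in MEF and 844 in NSC, against 103.7 in iNSC_13F and 174 in iNSC_14F. Usp15 read 456 in MEF and 706 in NSC, against 19.6 in iNSC_13F and 9.59 in iNSC_14F. Usp25 read 628 in MEF and 972 in NSC, against 141 in iNSC_13F and 144 in iNSC_14F. Usp15 was under the floor on both induced arrays and Usp25 over it on both. Usp9x was just under the floor in iNSC_13F and over it in iNSC_14F. Upstream of the ligases, Uba3, the catalytic subunit that activates Nedd8 for cullins, read 2910.3 in MEF and 3756 in NSC, against 293 in iNSC_13F and 468 in iNSC_14F. Cops2, of the signalosome that removes Nedd8 again, read 1384 in MEF and 3067 in NSC, against 206 in iNSC_13F and 248 in iNSC_14F. Uba6, an alternative ubiquitin-activating enzyme, had 1762 in MEF and 723 in NSC, against 18.6 in iNSC_13F and 20.5 in iNSC_14F. Uba3 and Uba6 were 2 of 4 bright activating enzymes on a list written after the values were seen. Of all bright genes 4.29% were members.

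Ribosomal protein and translation factor genes had 3 members of 93 bright genes (3.23%), with 8 at least 2-fold lower (8.60%), both shares a little under those of all bright genes. Eif2s2, the beta subunit of the factor that brings initiator tRNA, read 13959 in MEF and 13289 in NSC, against 813 in iNSC_13F and 1038 in iNSC_14F, a margin of 3.68. Eif3a, the largest subunit of eIF3, read 6949 in MEF and 11237 in NSC, against 978 in iNSC_13F and 1222 in iNSC_14F. Eif5b, which joins the ribosomal subunits, read 740.0 in MEF and 498 in NSC, against 36.6 in iNSC_13F and 88.7 in iNSC_14F. Eif2s2 was the brightest member in MEF after Hsp90aa1, and Eif5b was among the dimmer ones. Abce1, which recycles ribosomes after termination, had 1916 in MEF and 5759 in NSC, against 160.4 in iNSC_13F and 246 in iNSC_14F. Naa15, the ribosome-bound subunit of an N-terminal acetyltransferase, had 1622 in MEF and 3700.5 in NSC, against 185 in iNSC_13F and 211 in iNSC_14F. Impact, an imprinted gene whose protein restrains the eIF2 kinase Gcn2, had 1257 in MEF and 1297 in NSC, against 201 in iNSC_13F and 291 in iNSC_14F. Its margin was -0.95 with the median of its probe sets in place of the brightest. With Ube3a it made up the 2 members among 11 bright imprinted genes (18.2%), beside 4.29% of all bright genes. Esf1, a nucleolar protein of ribosomal RNA processing, read 838 in MEF and 2867 in NSC, against 42 in iNSC_13F and 57.8 in iNSC_14F. Gtpbp4, a nucleolar GTPase of the large ribosomal subunit, read 1949.5 in MEF and 3379.6 in NSC, against 319 in iNSC_13F and 373 in iNSC_14F. Dnttip2, a nucleolar protein, read 571 in MEF and 1545 in NSC, against 102 in iNSC_13F and 76.9 in iNSC_14F. Esf1 and Dnttip2 were dim on both induced arrays while Gtpbp4 was clearly over the floor.

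Splicing factors had 3 members of 110 bright genes (2.73%), with 14 at least 2-fold lower (12.7%) and 1 higher. Of all bright genes 4.29% were members and 11.8% were at least 2-fold lower. Ptbp3, a relative of the polypyrimidine tract binding protein, had 1514 in MEF and 1999 in NSC, against 72 in iNSC_13F and 176 in iNSC_14F. Prpf39, a U1 particle protein, had 482 in MEF and 809.9 in NSC, against 31.4 in iNSC_13F and 82 in iNSC_14F. Scaf11, an SR-related protein not on that list, had 1006 in MEF and 1582 in NSC, against 160.4 in iNSC_13F and 229 in iNSC_14F. Rbm39 is given below with the genes at the threshold. Ssb, the La protein that binds new polymerase III transcripts, read 1954 in MEF and 4381 in NSC, against 255 in iNSC_13F and 363 in iNSC_14F. Trnt1, which adds the CCA end to tRNA, read 1188 in MEF and 2499 in NSC, against 103.9 in iNSC_13F, just under the floor, and 246 in iNSC_14F. Thoc2, an X-linked subunit of the complex that couples transcription to mRNA export, read 693 in MEF and 1848 in NSC, against 60.9 in iNSC_13F and 127 in iNSC_14F. In each, iNSC_14F was higher than iNSC_13F. Among microRNA and RNA decay genes 2 of 20 bright genes were members (10%) and 5 were at least 2-fold lower (25%). Upf2, of nonsense-mediated decay, read 555 in MEF and 1043 in NSC, against 71.7 in iNSC_13F and 80.5 in iNSC_14F. Pum2, a translational repressor that binds 3′ ends, read 1211 in MEF and 3797 in NSC, against 235 in iNSC_13F and 283 in iNSC_14F. Ddx3x, an X-linked RNA helicase, was among the brightest members with 7169.8 in MEF and 13336 in NSC, against 821 in iNSC_13F and 845 in iNSC_14F. It was 1 of 4 members among 26 bright RNA helicases, with Ddx10, Ddx50 and Dhx36, on a list written after the values were seen.

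Nuclear transport genes had 8 members of 47 bright genes (17.0%), and 11 were at least 2-fold lower (23.4%), again on a list written afterwards. All bright genes had shares of 4.29% and 11.8%. Ahctf1, which seeds nuclear pores on chromatin, read 857 in MEF and 1112 in NSC, against 101 in iNSC_13F and 106 in iNSC_14F. Ranbp2, the large nucleoporin of the cytoplasmic filaments, read 1224 in MEF and 1733 in NSC, against 159.6 in iNSC_13F and 159 in iNSC_14F. Kpna3, an importin alpha, read 1155 in MEF and 3105 in NSC, against 189 in iNSC_13F and 265 in iNSC_14F. The remainder were the importins and transportin Kpna4, Ipo7 and Tnpo1 and the export factors Thoc1 and Thoc2. Across the 8 genes iNSC_13F ran from 60.9 to 442 and iNSC_14F from 106 to 692, against 693 to 3095 in MEF and 1112 to 7892 in NSC. Cohesin regulators, a list of 11 genes also written afterwards, had 4 members (Nipbl, which loads cohesin, Wapl, which releases it, and Pds5a and Stag1, which bind the ring) among 7 bright genes.

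Chromatin modifying enzymes had 2 members of 45 bright genes (4.44%), near the 4.29% of all bright genes. Of the 45, 9 were at least 2-fold lower (20%), beside 11.8% of all bright genes. Sirt1, a NAD-dependent deacetylase, read 564 in MEF and 829 in NSC, against 54.5 in iNSC_13F and 73 in iNSC_14F. Smarca5, the ATPase of ISWI remodellers, read 2705 in MEF and 7543 in NSC, against 290.3 in iNSC_13F and 651 in iNSC_14F. Pbrm1, a bromodomain subunit of the PBAF remodeller, read 1951 in MEF and 5058 in NSC, against 211 in iNSC_13F and 353 in iNSC_14F. Sirt1 was under the floor in both induced populations, and the remodellers were over it in both. Zzz3, a subunit of the ATAC acetyltransferase complex, had 1162 in MEF and 1592 in NSC, against 187 in iNSC_13F and 148 in iNSC_14F. Btaf1, which removes TBP from DNA, had 1330.5 in MEF and 1795 in NSC, against 173 in iNSC_13F and 232 in iNSC_14F. Gpbp1, a GC-rich promoter binding protein, had 1772 in MEF and 5289 in NSC, against 159 in iNSC_13F and 386 in iNSC_14F. In Gpbp1 the iNSC_14F signal was the higher by more than 2-fold, and in Zzz3 it was the lower.

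C2H2 zinc finger genes, mostly transcription factors, had 6 members of 75 bright genes (8%), with 19 at least 2-fold lower (25.3%) and 1 higher. All bright genes had shares of 4.29% and 11.8%. Zfp644 read 817 in MEF and 2906 in NSC, against 119.7 in iNSC_13F and 142 in iNSC_14F. Zfp638, which is involved in fat cell differentiation, read 508 in MEF and 2014 in NSC, against 78.9 in iNSC_13F and 64 in iNSC_14F. Zbtb41 read 565 in MEF and 1808 in NSC, against 115 in iNSC_13F and 112 in iNSC_14F. The remaining members of the family were under the floor on both induced arrays. Zfp386 read 467 in MEF and 1689 in NSC, against 34.6 in iNSC_13F and 78.3 in iNSC_14F. Zfp9 read 893 in MEF and 481 in NSC, against 84.2 in iNSC_13F and 91 in iNSC_14F. Zfp948 read 555 in MEF and 973 in NSC, against 55.5 in iNSC_13F and 41.5 in iNSC_14F. Zfp9 was the only zinc finger member with a higher signal in MEF than in NSC. Zeb2, a zinc finger homeobox factor of neural crest and mesenchymal transition, read 581 in MEF and 596 in NSC, against 29.4 in iNSC_13F and 80.6 in iNSC_14F. The nuclear receptors, ligand-gated transcription factors, had 2 members of 13 bright genes. Nr1d2, a repressor of the circadian clock, read 1155 in MEF and 957 in NSC, against 112 in iNSC_13F and 125 in iNSC_14F. Nr3c1, the glucocorticoid receptor, read 504 in MEF and 966 in NSC, against 44 in iNSC_13F and 60.3 in iNSC_14F. No member came from the 63 bright Fox, Gata, Klf, Runx, Tcf and Ets factors, of which 5 were at least 2-fold lower.

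Signalling members were receptors and the enzymes behind them. The TGF-beta and BMP pathway had 3 members of 20 bright genes (15%) and 5 at least 2-fold lower (25%). Of all bright genes 4.29% were members and 11.8% were at least 2-fold lower. Bmpr2, the type II BMP receptor, read 3133 in MEF and 4958 in NSC, against 344 in iNSC_13F and 483 in iNSC_14F. Tgfbr1, the type I TGF-beta receptor, read 1402 in MEF and 2128 in NSC, against 254 in iNSC_13F and 333 in iNSC_14F. Skil, a nuclear inhibitor of Smad proteins, read 3572 in MEF and 1014 in NSC, against 101 in iNSC_13F and 156 in iNSC_14F. The receptors were higher in NSC than in MEF and Skil was higher in MEF. Of 19 bright PI3K, AKT and mTOR genes 2 were members (10.5%). Pik3ca, the catalytic alpha subunit, read 484 in MEF and 1319 in NSC, against 39.9 in iNSC_13F and 8.14 in iNSC_14F. The other was Rictor, of the mTORC2 complex, and it read 883 in MEF and 419 in NSC, against 46.7 in iNSC_13F and 70.1 in iNSC_14F. Erbin, a scaffold that binds the ErbB2 receptor, read 2141 in MEF and 2924 in NSC, against 204 in iNSC_13F and 192 in iNSC_14F. Stk17b, a kinase related to the death-associated kinases, read 1747 in MEF and 984 in NSC, against 99.9 in iNSC_13F and 87.1 in iNSC_14F. Pkn2, a kinase related to protein kinase C, read 606 in MEF and 1377 in NSC, against 104 in iNSC_13F and 109 in iNSC_14F. Among these 5 genes only Erbin was clearly over the floor on both induced arrays. None of the 24 bright receptor tyrosine kinase and MAPK genes, 13 Wnt genes or 10 Notch genes was a member, and 2, 3 and 1 of them were at least 2-fold lower.

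Small GTPases and their regulators had 5 members of 99 bright genes (5.05%), with 12 at least 2-fold lower (12.1%). Both shares were near the 4.29% and 11.8% of all bright genes. All 5 were regulators. Dock11, an X-linked exchange factor for Cdc42, read 1045 in MEF and 1545 in NSC, against 63.8 in iNSC_13F and 87.4 in iNSC_14F. Arhgap5, a GTPase-activating protein, read 1463 in MEF and 2299 in NSC, against 76.8 in iNSC_13F and 161 in iNSC_14F. Tbc1d8b, an X-linked Rab inhibitor, read 927 in MEF and 658 in NSC, against 43.9 in iNSC_13F and 87.1 in iNSC_14F. The Ras inhibitors formed a pair. Rasa1 read 1611 in MEF and 2924 in NSC, against 289 in iNSC_13F and 267 in iNSC_14F. Rasa2 read 540.5 in MEF and 804 in NSC, against 71.1 in iNSC_13F and 56.8 in iNSC_14F. Rock1, a kinase of actomyosin contraction, read 1643 in MEF and 2747 in NSC, against 118 in iNSC_13F and 224 in iNSC_14F. It was the only member of 34 bright actin cytoskeleton genes (2.94%), of which 4 were at least 2-fold lower (11.8%). Ppp1r12a, a targeting subunit of myosin phosphatase, read 3148 in MEF and 5109 in NSC, against 703 in iNSC_13F and 612 in iNSC_14F. Diaph2, an X-linked formin, read 477 in MEF and 717 in NSC, against 61.2 in iNSC_13F and 117 in iNSC_14F. Ppp1r12a was far over the floor on the induced arrays and Diaph2 lay near or under the floor. Mob1b, of the Hippo pathway, read 578 in MEF and 1210.3 in NSC, against 102 in iNSC_13F and 124 in iNSC_14F. It was the 1 member of 12 bright genes of that pathway (8.33%), with 3 at least 2-fold lower (25%) and 1 higher. Among G proteins and their receptors, 2 of 33 bright genes were members (6.06%) and 3 were at least 2-fold lower (9.09%). Gng11, a gamma subunit, read 4887 in MEF and 558 in NSC, against 93.1 in iNSC_13F and 6.06 in iNSC_14F. Htr1b, a serotonin receptor, read 2812 in MEF and 446 in NSC, against 47.9 in iNSC_13F and 6.58 in iNSC_14F. Both were brightest in MEF. Gng11 had no other probe set, and the other probe set of Htr1b is given below.

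Of 20 bright cyclins and cyclin-dependent kinases 1 was a member (5%) and 2 were at least 2-fold lower (10%). Both shares were near the 4.29% and 11.8% of all bright genes. The member Ccne2, a cyclin E that drives entry into S phase, read 529 in MEF and 2705 in NSC, against 106 in iNSC_13F and 124 in iNSC_14F. Cep170, a centrosomal protein, read 796 in MEF and 1692 in NSC, against 75.5 in iNSC_13F and 131 in iNSC_14F. Ppp4r3b, a regulatory subunit of phosphatase 4, read 503 in MEF and 1827 in NSC, against 84 in iNSC_13F and 87.9 in iNSC_14F. In all 3 the NSC signal was more than 2-fold that of MEF. No member came from 6 bright cell cycle inhibitors, 9 DNA repair genes, 8 histone genes or 19 p53 target genes. Of the p53 target genes 1 was at least 2-fold lower and 1 higher. With members at 4.29% of all bright genes, lists this short may well hold none, so this says little about them. Ccng1 could not be a member, since the rule leaves it out by name. Members that act in division and were on none of these lists include Cenpe, a kinesin of kinetochores, Cdc27, a subunit of the anaphase-promoting complex, Anln, an actin-binding protein of cytokinesis, Haus3, a subunit of the spindle protein augmin, and Orc4, a subunit of the origin recognition complex.

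Of 11 bright collagen, laminin and integrin genes 2 were members (18.2%) and 3 were at least 2-fold lower (27.3%), beside 4.29% and 11.8% of all bright genes. Itgb1, the beta chain of most integrins, read 6571 in MEF and 3398 in NSC, against 541 in iNSC_13F and 606 in iNSC_14F. Lama4, a laminin chain of vessel basement membranes, read 1007 in MEF and 470.3 in NSC, against 22.1 in iNSC_13F and 6.68 in iNSC_14F. Adamts12, a secreted metalloprotease, read 944 in MEF and 869 in NSC, against 183 in iNSC_13F and 143 in iNSC_14F. Itgb1 was far over the floor on both induced arrays and Lama4 was under it on both. Among channels and transporters, Trpm7, a magnesium channel with a kinase domain, read 1511 in MEF and 2207 in NSC, against 137 in iNSC_13F and 205 in iNSC_14F. Clcn5, an X-linked chloride transporter of endosomes, read 2526 in MEF and 2561 in NSC, against 515 in iNSC_13F and 456 in iNSC_14F. One other probe set of Clcn5 also showed a gap, with a margin of 1.66. Another read 262 in MEF and 240 in NSC, against 295 in iNSC_13F and 346 in iNSC_14F, so it was highest in the induced cells. Slc30a4, a zinc exporter, read 949 in MEF and 1418 in NSC, against 131 in iNSC_13F and 96.8 in iNSC_14F. Slc30a4 was the 1 member of 77 bright solute carriers (1.30%), and the channels were 2 of 6 bright ion channel genes. Sh3bgrl, a small thioredoxin-like protein, was among the brightest members with 9271 in MEF and 10676 in NSC, against 611 in iNSC_13F and 933 in iNSC_14F. Tmem47, an X-linked membrane protein of cell junctions, read 1412 in MEF and 3797 in NSC, against 172 in iNSC_13F and 275 in iNSC_14F. Syap1, a synapse-associated protein, read 2040.3 in MEF and 1823 in NSC, against 307 in iNSC_13F and 388 in iNSC_14F. The signals of all 3 stayed over the floor on the induced arrays.

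The largest list without a member held genes of the respiratory chain, ATP synthase, mitochondrial ribosome, protein import, citric acid cycle and fatty acid oxidation. Of its 210 bright genes 0 met the rule, 1 was at least 2-fold lower on both induced arrays (0.476%) and 3 were at least 2-fold higher. Of all bright genes 4.29% were members and 11.8% were at least 2-fold lower. The median margin of the 210 was -0.87 against -0.73 for all bright genes. Members that act in mitochondria but were not on this list include Pnpt1, Dnm1l and Yme1l1, a protease of the inner membrane. The 34 bright glutathione and antioxidant genes also gave 0 members, with 1 lower.

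**Figure D3:**
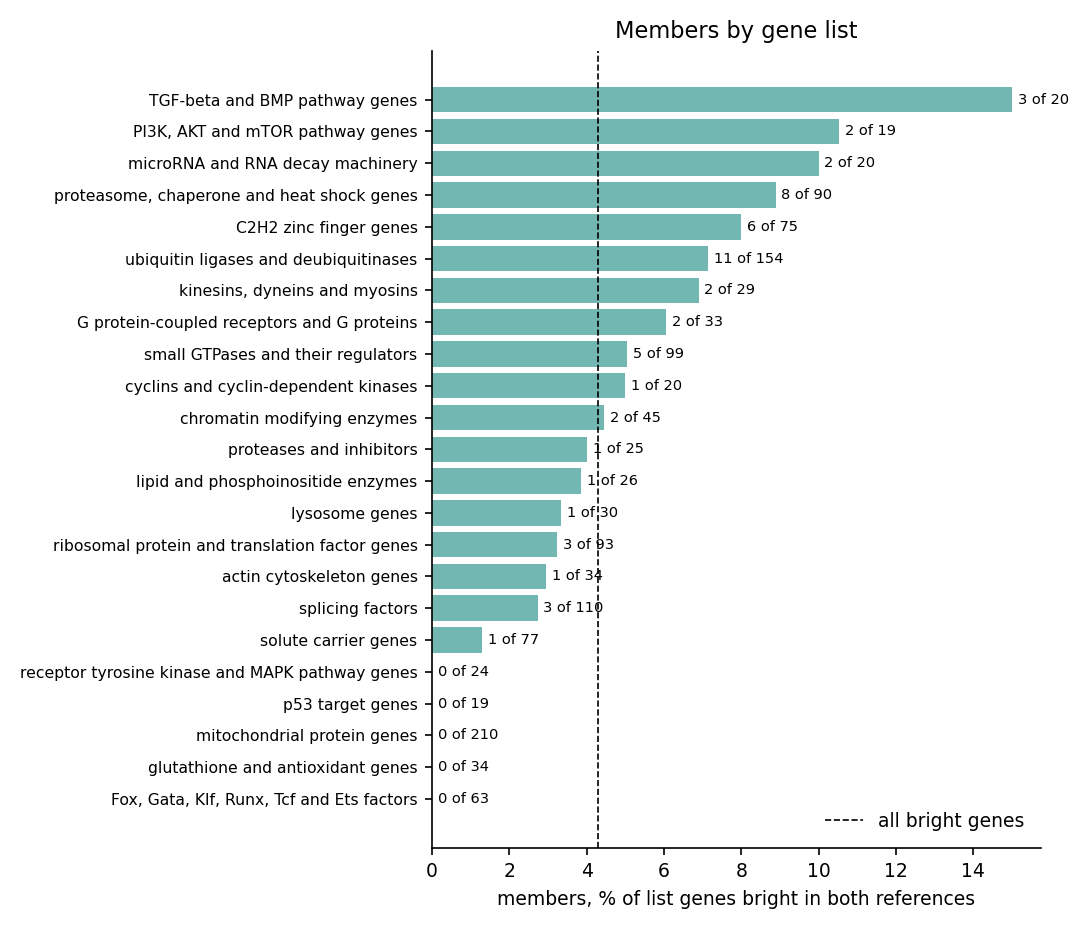
Bars show the percent of bright genes that were members, for those of the 49 lists with at least 19 bright genes, with counts beside the bars. Lists written after the values were seen, such as membrane traffic and nuclear transport, are not drawn. The dashed line is the 4.29% of all bright genes, and the mitochondrial list has 0 of 210 while the TGF-beta and BMP list has 3 of 20.

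The rule looked at 1 probe set per gene, and 205 members had further ones, 523 in all. A further probe set was able to show a 2-fold gap when MEF and NSC were both at least 208, which 219 were. Of these 201 (91.8%) were at least 2-fold lower on both induced arrays, against 10.9% of 3488 such probe sets of bright genes outside the set. At 4-fold it was 87 of 127 (68.5%). The other 304 were too dim in MEF or NSC to be counted, and some of them went the other way. One of Impact read 135 in MEF and 87.1 in NSC, against 217 in iNSC_13F and 146 in iNSC_14F. Bright genes outside the set had failed the rule, so part of the contrast with them follows from how members were chosen. The same hybridisations gave these values, so they describe how far different probes of a transcript show the gap and are not replicates. All further able probe sets showed the gap for 118 of the 134 members that had one, and for 36 members with several probe sets every one of them did.

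Kif5b shows the agreement. Its first further probe set read 1329 in MEF and 1869 in NSC, against 85.3 in iNSC_13F and 92 in iNSC_14F. The next read 1764 in MEF and 5298 in NSC, against 123 in iNSC_13F and 181 in iNSC_14F. Another read 1044 in MEF and 2464 in NSC, against 31.7 in iNSC_13F and 67.1 in iNSC_14F. Each had a margin larger than that of the kept probe set, which was 2.91. For Eif2s2 all 4 able probe sets showed the gap, with margins of 1.82 to 3.17, and for Rbm39 6 of 7 did. For 8 members (Ptbp3, Snx13, Tug1, Tnpo1, Rnd3, Htr1b, Lrrfip1 and Hells) no able further probe set showed a 2-fold gap. The other probe set of Htr1b read 310.5 in MEF and 219.8 in NSC, against 354 in iNSC_13F and 338 in iNSC_14F, so it was highest in the induced cells. For Lrrfip1 the kept probe set read 5368 in MEF and 4279 in NSC, against 1009.5 in iNSC_13F and 1027 in iNSC_14F. Another of its probe sets read 1469 in MEF and 1730.3 in NSC, against 1128 in iNSC_13F and 1516 in iNSC_14F, with no gap. Ptbp3 came nearest to 2-fold with 364 in MEF and 404 in NSC, against 121 in iNSC_13F and 197 in iNSC_14F. Which transcripts these probe sets detect was not examined.

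**Figure D4:**
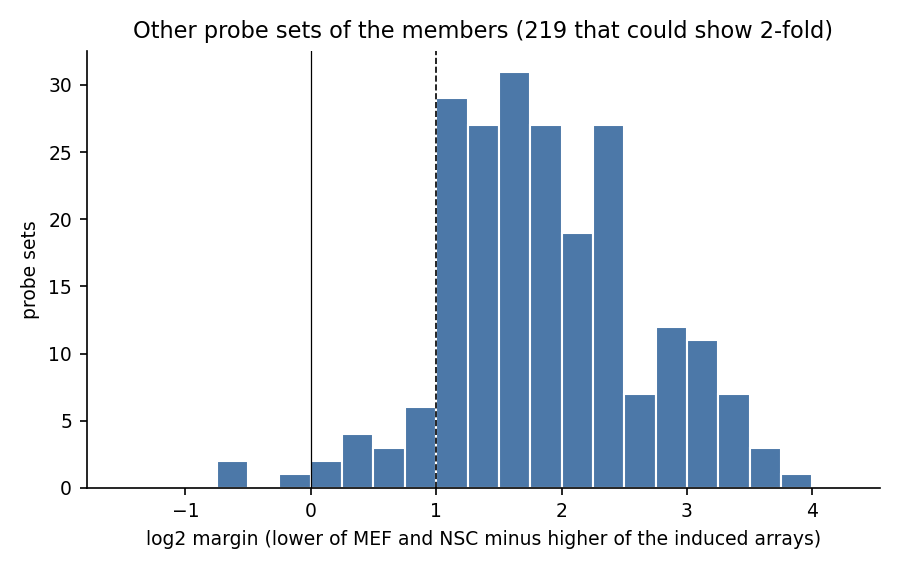
The histogram counts the 219 further probe sets of members that were able to show a 2-fold gap, by their log2 margin (lower of MEF and NSC minus higher of the induced arrays). The dashed line marks a 2-fold gap, and 201 of the 219 lie at or right of it.

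The rule fixed that both induced arrays were low but not which was lower. Of the 131 members above the floor on both, 111 (84.7%) were higher in iNSC_14F and 20 in iNSC_13F, against 58.7% higher in iNSC_14F among 5432 bright genes above the floor on both. The median difference of iNSC_14F minus iNSC_13F was 0.36 log2 units for these members and 0.09 for these bright genes. Over all 240 members the median was 0.16, since members at the floor count as equal. It became 0.33 with a floor of 64, 0.35 with a pseudocount of 16 in place of a floor, and 0.00 with a floor of 200. A 2-fold difference was found for 16 of the 240 members, all higher in iNSC_14F. Among 5591 bright genes 243 (4.35%) were at least 2-fold higher in iNSC_14F and 98 (1.75%) in iNSC_13F. Septin7, a filament-forming septin, read 7338 in MEF and 14941 in NSC, against 407 in iNSC_13F and 1109 in iNSC_14F. Ipo7, an importin, read 3095 in MEF and 7892 in NSC, against 237 in iNSC_13F and 692 in iNSC_14F. Dnm1l, the dynamin that divides mitochondria, read 1872 in MEF and 4502 in NSC, against 218 in iNSC_13F and 466 in iNSC_14F. By the rule all 3 were at least 4-fold below both references in iNSC_14F. The remainder of the 16 were Lamp2, Tug1, Dynlt3, Trnt1, Psmc6, Gmfb, Rc3h2, Gpbp1, Nckap1, Dnajc13, Smarca5, Tmx3 and Dhx36. These differences are those of the kept probe sets, and some other probe sets of Lamp2 were lower in iNSC_14F, as given above.

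Members were mostly higher in NSC than in MEF. This held for 199 of 240 (82.9%), against 55.1% of all bright genes, and the median difference was 0.71 log2 units (1.63-fold) against 0.09. At 2-fold 90 members were higher in NSC (37.5%), beside 16.9% of bright genes, and 14 were higher in MEF (5.83%), beside 10.7%. Scaling to the hybridisation controls, which were dimmest on the NSC array, gave a median of 1.58 for the members and 0.96 for all bright genes. At 4-fold 6 members were higher in NSC, which were Bclaf1 by 5.19-fold, Ccne2 by 5.11-fold, Hmmr by 4.60-fold, B3gnt5 by 4.23-fold, Chm by 4.11-fold and Ift74 by 4.07-fold. Bclaf1, a nuclear RNA-binding protein, read 848 in MEF and 4404 in NSC, against 22.8 in iNSC_13F and 161 in iNSC_14F. Hmmr, a spindle protein of dividing cells, read 667 in MEF and 3071 in NSC, against 139.7 in iNSC_13F and 156 in iNSC_14F. The 6 members at least 4-fold higher in MEF were Lpp by 11.7-fold, Gng11 by 8.76-fold, Phldb2 by 6.85-fold, Crispld2 by 6.56-fold, Htr1b by 6.31-fold and Flrt2 by 4.23-fold. Lpp, a focal adhesion protein, read 5838 in MEF and 498 in NSC, against 18.8 in iNSC_13F and 114 in iNSC_14F. Crispld2, a secreted protein of mesenchyme, read 5985 in MEF and 913 in NSC, against 137 in iNSC_13F and 77.9 in iNSC_14F. The rule itself requires that in these the induced cells lie at least 4-fold below the dimmer reference, NSC.

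The X chromosome was the location of 17 of the 198 members with a promoter entry (8.59%), against 3.32% of 4426 other bright genes and 3.67% of array genes. Counted over bright genes, 17 of 164 X-linked genes were members (10.4%) and 36 were at least 2-fold lower (22.0%), beside 181 of 4467 autosomal genes (4.05%) and 493 (11%). The median margin was -0.41 for X-linked and -0.76 for autosomal bright genes. The X-linked members among these were Acsl4, Atp7a, Chm, Clcn5, Cul4b, Ddx3x, Diaph2, Dock11, Dynlt3, Lamp2, Mospd2, Pls3, Rlim, Sh3bgrl, Tbc1d8b, Thoc2 and Tmem47. The arrays differed in sex-linked transcripts. Xist, the RNA of the inactive X, read 2893 in MEF and 13134 in NSC, against 3072 in iNSC_13F and 58.0 in iNSC_14F. Of the Y-linked genes, Eif2s3y read 367 in MEF and 19 in NSC, against 106 in iNSC_13F and 408 in iNSC_14F. The part of sex-linked differences between the cells in this count was not tested.

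**Figure D5:**
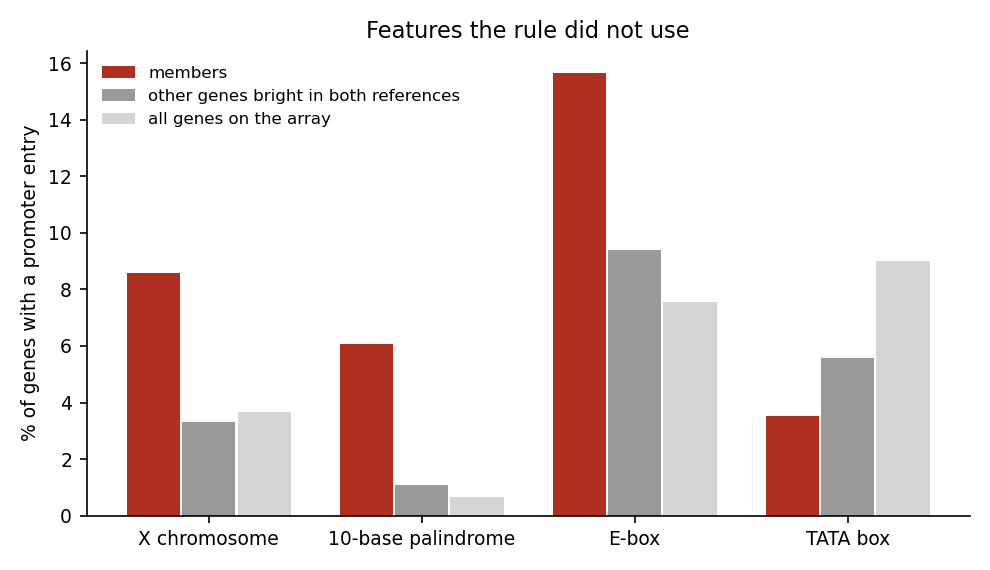
Bars show the percent of genes with a promoter entry that lie on the X chromosome or hold a motif in the 250 bases before the start, for members (red), other bright genes (dark grey) and all genes of the array (light grey). The 10-base palindrome stands in 6.06%, 1.08% and 0.675%, and the X chromosome holds 8.59%, 3.32% and 3.67%.

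Some members are neighbours in the genome, with no other protein-coding gene of the array between them. There were 11 such pairs: Nop58 with Bmpr2, Pnpt1 with Ppp4r3b, Fnip1 with Rapgef6, Togaram1 with Prpf39, Secisbp2l with Cops2, Usp33 with Zzz3, Plaa with Ift74, Pds5a with N4bp2, Trnt1 with Crbn, Usp9x with Ddx3x, and Lamp2 with Cul4b. Protein-coding genes on the array were ordered along each chromosome for this. Among 2183 neighbouring pairs of bright genes, 180 held at least 1 member and these 11 held 2. Counting both genes of every pair, a member had a member as its neighbour in 22 of 191 cases (11.5%), and another bright gene had one in 169 of 4175 (4.05%). This is a description of 1 array a group with no test.

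At the threshold the rule cut through closely similar genes. Just inside were Rbm39, Pnpt1, Dnm1l, Nipbl and Ddx50, with margins of 2.005 to 2.007. Rbm39, a splicing factor, read 1979.6 in MEF and 3961 in NSC, against 391 in iNSC_13F and 493 in iNSC_14F. Pnpt1, the polynucleotide phosphorylase of mitochondria, read 433 in MEF and 1148 in NSC, against 45.8 in iNSC_13F and 108 in iNSC_14F. Nipbl read 418 in MEF and 799 in NSC, against 48.7 in iNSC_13F and 80.6 in iNSC_14F. Dnm1l was given above. Ddx50, a nucleolar helicase, read 1921 in MEF and 2406 in NSC, against 478 in iNSC_13F and 431 in iNSC_14F. Just outside were Rnf19a, Chd9, Vcpip1, Bub1 and Hipk3, with margins of 1.995 to 1.998. Rnf19a, a ubiquitin ligase, read 871 in MEF and 717 in NSC, against 121 in iNSC_13F and 179.6 in iNSC_14F. Chd9, a chromatin remodeller, read 415 in MEF and 438 in NSC, against 39.1 in iNSC_13F and 52.6 in iNSC_14F. Vcpip1, a deubiquitinase of Golgi assembly, read 563 in MEF and 759.7 in NSC, against 121 in iNSC_13F and 141 in iNSC_14F. Bub1, a kinase of the spindle checkpoint, read 717 in MEF and 3732 in NSC, against 77.8 in iNSC_13F and 180.0 in iNSC_14F. Hipk3, a nuclear kinase, read 2407 in MEF and 1296 in NSC, against 325 in iNSC_13F and 212 in iNSC_14F.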

How the data were processed

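The authors deposited 1 linear intensity per probe set, for 45101 probe sets on each of 4 arrays, MEF, NSC, iNSC_13F and iNSC_14F. Per the submitters' processing notes these intensities were made with MAS5, with no version or settings stated there. MAS5 summarises each array alone and scales it by 1 factor, and the 2% trimmed mean was 500 on every array, so nothing was rescaled.

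Controls (64 probe sets) were dropped, and probe sets were named from the platform annotation. It gave 1 gene for 34945 probe sets, of which 34741 matched a RefSeq gene by ID, several genes for 932 and none for 9160. Values below the floor have no order, and a fold against one is a lower bound. Precision is limited by the single array per group and by how far a signal lies over background, and no test was run. The steps were run in Python 3.11.15 with pandas 2.3.3 and were tested on simulated data.

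The members, the 49 gene lists and the 10 motifs were chosen with earlier results of these data known, and 5 further lists were written after the values were seen. Another 4 motifs that had been searched are not reported here. Values on every array are given for the 25 members with the largest margin, for members on one of the 49 lists, for members whose probe sets, where there were several, all showed a 2-fold gap, and for the 5 genes on either side of the threshold. A few others named for a large difference between NSC and MEF or between the induced arrays were chosen after their values were seen. Alternatives were quantile normalisation, scaling to the hybridisation controls, floors of 64 and 200, a pseudocount of 16 with no floor, the median over the probe sets of a gene, no _s_at and _x_at probe sets, other gaps and, added after the data were seen, leaving out each array.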

Additional observations from a re-analysis of the deposited data

How the results depend on the processing

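No paired analysis was possible because each group had 1 array and no test was made. The 240 members became 150 with a floor of 200 (147 shared), 95 with the median over a gene's probe sets (83 shared), 20 at a gap of 3 log2 units and 851 at a gap of 1. Without MEF, NSC, iNSC_13F or iNSC_14F the rule has fewer conditions and was met by 938, 818, 276 and 424 genes, a range of 276 to 938. The other settings gave 195 to 297 members. Genes called lower were 95% of those lower or higher, 91.9% after quantile normalisation, 98.4% after scaling to the hybridisation controls and 78.3% at a gap of 1. The median of iNSC_14F minus iNSC_13F moved from 0.16 to 0.33 with a floor of 64, 0.35 with the pseudocount, and 0.00 both with a floor of 200 and with the probe-set median. That of NSC minus MEF moved from 0.71 to 1.58 with the hybridisation controls and 0.49 with the probe-set median. The share of further probe sets showing the gap was 87.4% to 94.7% in the settings that allow it, which the pseudocount and the probe-set median do not. The X-linked share was 8.33% to 10.3%, and that of the palindrome 4.37% to 5.76%. Margins turned negative for Htr1b (-0.69 with a floor of 64, -0.65 with the pseudocount), Impact (-0.95 with the probe-set median) and Dnajc2 (-0.51 without _s_at and _x_at probe sets), where another probe set stood for the gene or entered its median. Of 109 genes followed, 44 kept the 4-fold gap with the probe-set median, 73 with a floor of 200 and 96 to 106 in the other settings. No setting replaces replicate arrays, and signals near the floor limit the smaller margins.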

Other observations

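Probe sets that could not be given to 1 gene were outside the set. Of these 10092 probe sets, 698 had signals of at least 416 in both MEF and NSC. At least 4-fold lower signals on both induced arrays were found for 34 of them (4.87%), close to the 4.44% of bright genes that met the rule, and 2 were at least 4-fold higher. The 3 members without an established symbol had the same pattern by definition and are not described.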
